A study of Mus musculus with 60 samples.

Results

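Lgr5 and 9 other genes that respond to Wnt signalling were followed in mouse liver organoids grown from cholangiocytes, the epithelial cells of the bile duct. The 10 genes, Lgr5, Lgr4, Rnf43, Znrf3, Axin2, Nkd1, Tnfrsf19, Ascl2, Sp5 and Tcf7, were taken by symbol out of 31354 genes listed in any of 3 count tables. There were 23440 genes for the cultures, 23068 for the passages and 28773 for the single organoids. Nkd1 was listed only in the single organoid table, and the other 9 genes were in all 3.

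Wnt proteins bind Frizzled and Lrp receptors at the cell surface, which stabilises β-catenin and lets it activate genes together with transcription factors of the TCF family. R-spondins strengthen the signal by binding Lgr4 and Lgr5, which takes the ubiquitin ligases Rnf43 and Znrf3 away from the Frizzled receptors. Many of these components are also targets of the pathway, and Lgr5 marks dividing stem cells of the gut as well as liver duct cells that give rise to organoids, while it is low in the resting bile duct.

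All organoids came from C57BL/6N mice of 3-4 months with no engineered allele, and every library was made by 3′-end RNA-seq. Dome cultures (n = 3) grew in drops of Matrigel, and suspension cultures (n = 3) grew in dilute Matrigel on a shaker. Each of Sets 1 to 4 was a culture from the liver of 1 mouse, and 35 of 42 single organoids from suspension were used. They were 8 organoids of Set 1 (passage 11), 10 of Set 2 (passage 3), 5 of Set 3 (passage 3) and 12 of Set 4 (passage 4). Bulk cultures of Sets 1, 3 and 4 were taken at passage 4 and again at passage 11, and the 2 technical replicates of each were summed. The dome and suspension cultures were made from pooled animals by the study's methods, and the sources used here do not give the culture format of the bulk passages. In the single organoids the mouse and the passage of a set cannot be told apart, and the P-values between sets measure the spread among organoids of 1 culture, not among mice.

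All 12 cholangiocyte markers, among them Epcam, Krt7, Krt19 and Sox9, had counts in every group. Endothelial markers summed to at most 3.83 CPM and mesenchymal markers to at most 0.960 CPM in any library. The 8 macrophage markers summed to 183.2 to 1159.4 CPM, most of it Cd14, and the Kupffer cell markers Clec4f and Marco were at 0 in every group. Library totals were 1776490 to 14761853 counts for the cultures, 1486347 to 5532630 for the summed bulk libraries and 1059002 to 11175868 for the single organoids. Levels are CPM, the count of a gene scaled to a common library total, after TMM scaling within each table, so values of different tables were normalised separately. A count limit of 3 was used for a gene at 0, and this limit and the intervals cover counting error only.

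Lgr5 lies on chr10:115450311-115587780 of GRCm38, and its span overlaps A930009A15Rik on the opposite strand. Ascl2 at chr7:142966829-142969264, Sp5 at chr2:70474923-70477729, Lgr4 at chr2:109917647-110014257 and Znrf3 at chr11:5276324-5444847 overlap no other annotated gene. Axin2 at chr11:108920349-108950783 and Tcf7 at chr11:52252371-52283014 each overlap an antisense gene, and the sources used here do not state whether the counting used strand.

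Sp5 and Ascl2 are shown first by the sequence around their start, since they were the members with the largest change between passages. The RefSeq windows of GRCm38.p6 run from 250 bases before to 50 bases after the start, 5′ to 3′ on the strand of the gene, at chr2:70474673-70474972 on the plus strand for Sp5 and at chr7:142969215-142969514 on the minus strand for Ascl2. Capitals mark matches to CTTTGAT or CTTTGTT, core letters bound by TCF factors, on either strand.
Sp5: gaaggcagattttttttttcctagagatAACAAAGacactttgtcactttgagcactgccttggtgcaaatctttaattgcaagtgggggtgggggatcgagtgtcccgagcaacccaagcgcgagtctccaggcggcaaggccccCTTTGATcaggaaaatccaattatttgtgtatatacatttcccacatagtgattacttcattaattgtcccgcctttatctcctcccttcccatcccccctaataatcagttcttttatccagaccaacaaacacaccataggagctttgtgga
Ascl2: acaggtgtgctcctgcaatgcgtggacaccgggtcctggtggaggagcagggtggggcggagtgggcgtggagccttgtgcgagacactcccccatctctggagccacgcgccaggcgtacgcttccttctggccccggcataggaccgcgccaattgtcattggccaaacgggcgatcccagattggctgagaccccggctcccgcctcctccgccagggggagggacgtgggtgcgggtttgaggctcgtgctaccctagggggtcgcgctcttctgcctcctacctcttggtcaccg

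The Sp5 window held CTTTGAT starting 104 bases before the start and CTTTGTT, on the reverse strand, starting 222 bases before it. The Ascl2 window held neither. Of 32851 promoter windows of the same length, 3.73% held CTTTGAT and 5.85% held CTTTGTT. The share that held either was not computed, so the count of member windows with a match, given next, has no background. The table held windows for 8 of the 10 members, in 11 windows, of which 2 had a match, and the second was an alternative start of Tnfrsf19 with CTTTGAT on the reverse strand starting 202 bases before it. Lgr5 and Znrf3 had no window in the table.

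In dome and suspension cultures, Lgr5 was close to absent, and Znrf3 was the only member of 6 tested that passed the threshold. Of 12699 genes tested, 29.8% were called, with 14.7% lower in domes, so 1 of 6 members is near the background. Lgr5 had 0, 0 and 0 counts in domes 1 to 3 and 1, 0 and 4 counts in suspension cultures 1 to 3. The pooled level was below 0.184 CPM in domes by the limit of 3 counts, and 0.213 CPM (95% exact Poisson interval 0.0691 to 0.497) in suspension. Lgr5 was thus left out of the test by the filter on low counts.

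Sp5, a zinc-finger transcription factor, had 0 counts in all domes and in suspension cultures 1 and 2, and 4 counts in suspension culture 3. Tnfrsf19, a receptor of the TNF receptor family also known as Troy, had 0 counts except for 3 in suspension culture 1. Both were left out by the same filter.

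Znrf3, which removes Frizzled receptors from the membrane, measured 1.83, 4.40 and 2.75 CPM in domes and 6.73, 5.20 and 5.65 CPM in suspension. Every suspension culture was above every dome. The difference was -1.25 (log2, SE 0.38, 95% CI -2.10 to -0.40, adj. P-value = 0.0339), which is 2.37-fold lower in domes. The counts behind it were 24, 6 and 5 in domes and 32, 22 and 82 in suspension, and groups without overlap occurred in 47.4% of all genes tested. The call was lost without dome culture 1 (log2 difference -0.74, adj. P-value = 0.218) and without any of the suspension cultures (adj. P-value = 0.0734 to 0.118).

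Its relative Rnf43 measured 8.30, 14.7 and 13.2 CPM in domes and 8.00, 8.51 and 9.37 CPM in suspension, and the difference of 0.38 (SE 0.28, adj. P-value = 0.334) did not pass. Lgr4, the more broadly expressed R-spondin receptor, measured 19.6, 9.53 and 22.5 CPM in domes against 10.7, 10.2 and 12.3 CPM in suspension, a difference of 0.67 (SE 0.29, adj. P-value = 0.105). Dome 2 alone lay below the suspension cultures, and without it the difference in Lgr4 was 0.90 (adj. P-value = 0.0145).

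Axin2, a scaffold of the β-catenin destruction complex and a negative feedback target, measured 3.43, 0.733 and 3.30 CPM in domes and 2.53, 0.946 and 1.03 CPM in suspension, with overlapping groups and a difference of 1.02 (SE 0.54, adj. P-value = 0.174). Tcf7, a TCF family transcription factor, measured 2.36, 2.20 and 3.85 CPM against 3.37, 4.49 and 5.10 CPM (-0.72, SE 0.36, adj. P-value = 0.157). Ascl2, a basic helix-loop-helix factor of intestinal stem cells, had 54, 0 and 2 counts in domes and 5, 11 and 13 counts in suspension. Nearly all dome counts of Ascl2 came from dome 1, and its difference of 0.96 (SE 0.69, adj. P-value = 0.313) turned to -1.09 when that library was left out.

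**Figure D1:**
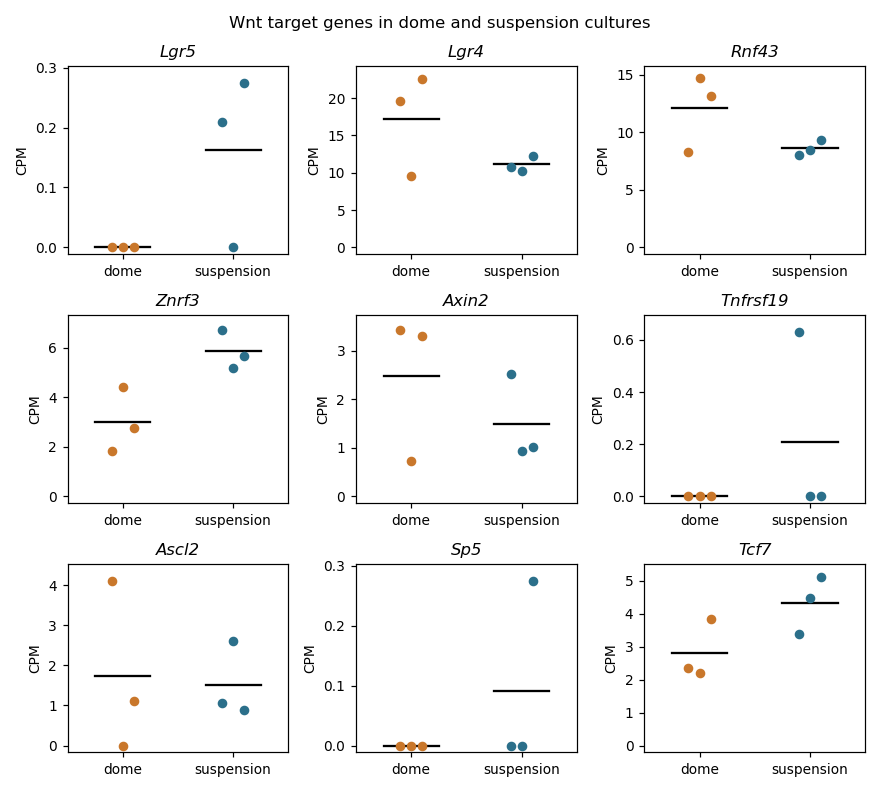
CPM of the 9 members listed in the culture table (y axis, own scale per gene) in 3 dome and 3 suspension cultures. Points are cultures and bars are means. Znrf3 is the only panel tested in which all dome points lie below all suspension points, and Lgr5, Sp5 and Tnfrsf19 lie at or near 0.

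Other genes of the pathway moved in both directions between domes and suspension. None of the 4 R-spondin genes had enough counts to be tested, and of 19 Wnt ligand genes 3 were tested and 1 rose in domes. That gene was Wnt4, at a mean of 13.3 CPM in domes and 1.82 CPM in suspension with overlapping groups (log2 difference 3.30, SE 0.73, adj. P-value = 0.00924). Of 21 other Wnt target genes 18 were tested, 3 rose and 5 fell in domes. The list holds Mmp7, a secreted protease, at 507.9 against 65.1 CPM (2.96, SE 0.70, adj. P-value = 0.0124).

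Lower in domes were Sox4, a transcription factor of progenitor cells (13.7 against 93.5 CPM, -2.67, SE 0.46, adj. P-value = 0.00361), and Fosl1, an AP-1 subunit (9.70 against 27.8 CPM, -1.51, SE 0.22, adj. P-value = 0.00204). Among 12 genes that depend on Wnt in pericentral hepatocytes, 7 were tested, with 3 higher and 2 lower in domes, the extremes being Rnase4 (20.6 against 1.99 CPM, log2 difference 3.29, SE 0.33, adj. P-value = 0.000701) and Lect2 (0.0508 against 3.58 CPM, -4.64, SE 0.97, adj. P-value = 0.00739). Of 16 Wnt receptor genes 10 were tested and 1, Lrp6, fell, and of 11 genes for Dishevelled and the destruction complex 10 were tested and 1, Gsk3b, fell. Of 13 nuclear effectors 10 were tested, of which Tle1 rose and Tcf7l2 and Bcl9l fell. Both Wnt secretion genes were tested, and Porcn, the enzyme that attaches a lipid to Wnt proteins, rose, while none of 3 tested among 17 secreted and membrane inhibitors was called. The median difference was 0.53 over the 6 members tested and -0.04 over all genes. Proliferation genes fell in domes in 19 of 22 cases, with a summed level of 354.1 to 865.5 CPM in domes and 1372.9 to 1585.6 CPM in suspension. Mitochondrial genes took 1.64 to 2.02% of counts in domes and 3.72 to 4.02% in suspension. Summed macrophage markers were 207.3 to 280.7 CPM in domes and 524.5 to 648.7 CPM in suspension. Cd14 was lower in domes (190.0 against 582.6 CPM, adj. P-value = 0.00453). Cd68 was higher in domes by its mean, with overlapping groups (41.2 against 4.74 CPM, adj. P-value = 0.0223). The part of these in the values of the members was not tested.

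Between passages 4 and 11 of the same 3 sets, Ascl2 and Sp5 rose and Lgr5 showed no change that could be detected. Ascl2 and Sp5 were the only 2 called of 8 members tested, both higher at passage 11. Of 13738 genes tested, 20.3% were called and 10.1% were called higher at passage 11, so 2 of 8 members is near the share called in either direction. In bulk libraries, fewer cells of a type and less RNA per cell cannot be told apart.

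Ascl2 measured 4.15, 4.99 and 4.22 CPM at passage 4 in Sets 1, 3 and 4, and 7.18, 28.8 and 47.7 CPM at passage 11. The 3 sets were close together at passage 4 and spread widely at passage 11, with Set 1 the lowest, and every culture at passage 11 was above every culture at passage 4. Within sets the ratio of passage 11 to passage 4 was 1.73 in Set 1, 5.78 in Set 3 and 11.3 in Set 4. The fitted change was 2.54 (log2, SE 0.55, 95% CI 1.32 to 3.75, adj. P-value = 0.0113).

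Sp5, whose start sequence with its TCF letters is given above, measured 1.30, 1.73 and 1.41 CPM at passage 4 and 2.92, 10.7 and 21.0 CPM at passage 11. The order of the sets was that of Ascl2, with Set 1 lowest and Set 4 highest at passage 11. Ratios were 2.25 in Set 1, 6.22 in Set 3 and 14.9 in Set 4, and the fitted change was 2.77 (SE 0.63, 95% CI 1.38 to 4.17, adj. P-value = 0.0136). The counts were 5, 9 and 8 at passage 4 and 13, 54 and 33 at passage 11. Groups without overlap, as both genes showed, occurred in 39.5% of all genes tested.

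The technical replicates gave the same picture for both genes. In Set 4 at passage 11, the culture with the smallest total of 1486347 counts, Ascl2 measured 50.2 and 44.4 CPM and Sp5 16.7 and 26.6 CPM in the 2 technical replicates. In the same set at passage 4 they were 3.37 and 5.37 CPM for Ascl2 and 1.23 and 1.65 CPM for Sp5. With limma-voom the adj. P-value was 0.0513 for Ascl2 and 0.0594 for Sp5, and with libraries thinned to the smallest total that of Sp5 was 0.0555.

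Axin2 had 5, 17 and 7 counts at passage 4 and 11, 25 and 19 at passage 11, which is 1.30, 3.26 and 1.23 CPM against 2.47, 4.97 and 12.1 CPM. It was higher at passage 11 within each of the 3 sets, by 1.90, 1.52 and 9.81 times, while the groups overlapped. The change of 1.50 (SE 0.59, 95% CI 0.19 to 2.81) had an adj. P-value of 0.102 and passed with DESeq2 (1.65, adj. P-value = 0.0428) and with no filter on low counts (1.49, adj. P-value = 0.00414). Without Set 1 at passage 11 it was 1.95 (adj. P-value = 0.0430).

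Tcf7 measured 7.00, 1.73 and 2.29 CPM at passage 4 and 4.94, 6.16 and 12.7 CPM at passage 11. The counts were 27, 9 and 13 at passage 4 and 22, 31 and 20 at passage 11. The level was lower at passage 11 in Set 1 and higher in Sets 3 and 4. The fitted change in Tcf7 of 1.04 (SE 0.53, adj. P-value = 0.196) did not pass, and it was 1.81 (adj. P-value = 0.0375) without Set 1 at passage 4.

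Lgr5 measured 2.85, 2.69 and 2.29 CPM at passage 4 and 2.24, 2.39 and 1.91 CPM at passage 11. It was slightly lower at passage 11 within each set, and the groups overlapped. The change of -0.21 (SE 0.36, 95% CI -0.99 to 0.58, adj. P-value = 0.752) rested on 38 counts at passage 4 and 25 at passage 11. The upper end of this interval lies below the fitted changes of Ascl2 and Sp5. The technical replicates of Set 3 at passage 4 gave 0.822 and 4.32 CPM, a spread wider than that between the passages.

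The receptors and ligases showed no call. Lgr4 measured 17.4, 15.7 and 19.9 CPM at passage 4 and 13.5, 34.0 and 35.0 CPM at passage 11 (0.60, SE 0.31, adj. P-value = 0.205), and it was 0.97 (adj. P-value = 0.00948) without Set 1 at passage 11. Rnf43 changed by 0.24 (SE 0.36, adj. P-value = 0.683) and Znrf3 by 0.02 (SE 0.25, adj. P-value = 0.966). In Set 4 Rnf43 was 6.51 CPM at passage 4 and 14 CPM at passage 11, and in Set 1 it was 6.22 and 4.94 CPM. Tnfrsf19 had 0, 1 and 0 counts at passage 4 and 0, 2 and 4 counts at passage 11, too few for the test.

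**Figure D2:**
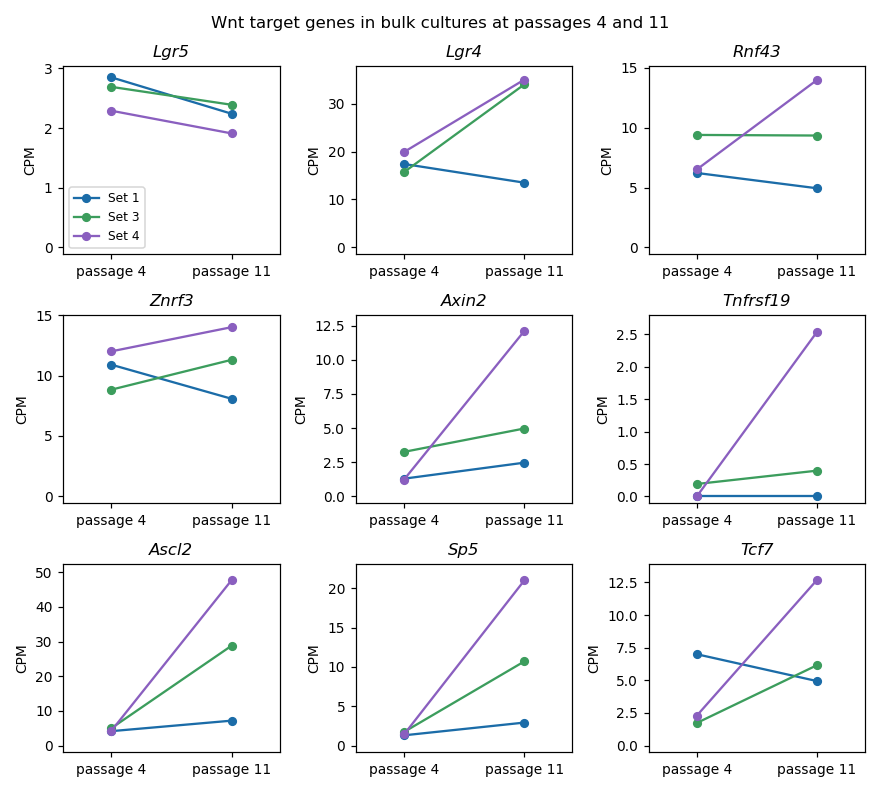
CPM of 9 members (y axis, own scale per gene) in bulk cultures at passage 4 and passage 11. Each line joins the 2 passages of 1 set, with technical replicates summed. Ascl2 and Sp5 start together and fan out at passage 11 with Set 1 lowest and Set 4 highest, while Lgr5 stays between 1.91 and 2.85 CPM.

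Proliferation genes were higher at passage 11 in 20 of 22 cases, with a summed level of 519.5, 580.2 and 581.4 CPM at passage 4 and 1458.6, 1674.4 and 2110.9 CPM at passage 11 in Sets 1, 3 and 4. Set 1, with the smallest rise of Ascl2 and Sp5, was the lowest in this sum at both passages. Mki67 measured 7.00, 11.1 and 11.4 CPM at passage 4 and 11.2, 22.1 and 10.8 CPM at passage 11 in Sets 1, 3 and 4. Its change of 0.61 (SE 0.31, adj. P-value = 0.191) did not pass. The share of mitochondrial counts was 1.99 to 2.63% at passage 4 and 0.895 to 1.71% at passage 11, without overlap. Hepatocyte markers summed to 341.4 to 756.5 CPM at passage 4 and 817.9 to 1169.6 CPM at passage 11, with 2 of 8 tested called higher and none called lower. Most of the sum was Ttr, at 498.6 and 828.6 CPM, whose change of 0.73 (SE 0.31, adj. P-value = 0.119) did not pass. Of the 8 changes 5 were positive, while Apob (-1.49), Alb (-1.79) and Ass1 (-0.63) were negative and not called. Macrophage markers summed to 876.2 to 1159.4 CPM and 381.0 to 624.3 CPM, and Cd14 fell from 1040.0 to 469.1 CPM (adj. P-value = 0.00520). The part of these values in the change of the members was not tested. Of the other Wnt target genes, 18 of 21 were tested, 4 rose and 5 fell. Cdx2, an intestinal transcription factor, rose from 9.76 to 65.1 CPM (2.80, SE 0.32, adj. P-value = 0.000878), and Birc5, which also acts in cell division, rose from 53.3 to 229.2 CPM (2.09, SE 0.19, adj. P-value = 0.000364).

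Sox4 fell from 90.1 to 33.7 CPM (-1.44, SE 0.16, adj. P-value = 0.000837). Wnt7a fell from 3.84 to 0.826 CPM (-2.07, SE 0.45, adj. P-value = 0.0119) as the only 1 of 5 Wnt ligands tested that was called, and Dvl1, a Dishevelled protein that relays the signal from Frizzled, fell from 26.0 to 8.14 CPM (-1.57, SE 0.22, adj. P-value = 0.00183). Among pericentral hepatocyte genes 2 of 8 tested were called higher and none was called lower, with Rnase4 going from 4.49 to 20.7 CPM (2.14, SE 0.26, adj. P-value = 0.000958). Of 11 receptors tested 1, Ryk, rose, and of 10 nuclear effectors tested Tle1 rose and Bcl9l fell. No Wnt secretion gene and none of 4 tested inhibitors was called, and no R-spondin gene was tested. The median change was 0.82 over the 8 members tested and -0.05 over all genes, and it was -0.60 over the other Wnt target genes, opposite in sign to the changes of Ascl2 and Sp5.

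Among single organoids, Lgr5 was lowest in Set 1, Sp5 and Ascl2 were highest in Set 4, and Tcf7 was lowest in Set 1. The plot of CPM per organoid shows these levels. In a test for any difference among the 4 sets, 34.6% of 13927 genes were called, and 6 of 9 members tested were among them. These were Sp5 (adj. P-value = 4.16e-06), Tcf7 (6.01e-05), Ascl2 (0.000153), Lgr5 (0.000204), Axin2 (0.0177) and Rnf43 (0.0319). Tnfrsf19 (0.0822), Znrf3 (0.149) and Lgr4 (0.519) did not pass.

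**Figure D3:**
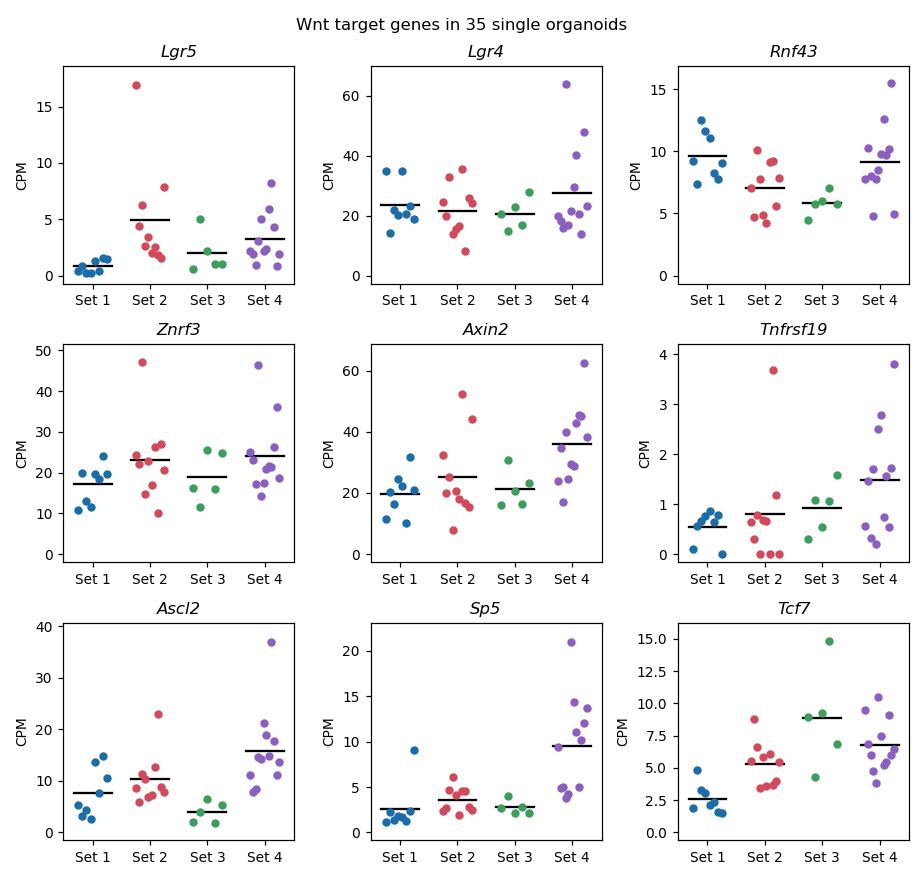
CPM of 9 members (y axis, own scale per gene) in 35 single organoids. Points are organoids, bars are set means, and the x axis gives the set. Lgr5 stays at or below 1.55 CPM in all of Set 1 and reaches 16.9 CPM in 1 organoid of Set 2, and the upper part of the Sp5 and Ascl2 panels is held mostly by Set 4.

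Lgr5 ranged from 0.220 to 1.55 CPM with a median of 0.642 in Set 1, from 1.59 to 16.9 CPM with a median of 3.03 in Set 2, from 0.595 to 5.06 CPM with a median of 1.06 in Set 3, and from 0.858 to 8.18 CPM with a median of 2.27 in Set 4. Every organoid of Set 2 was above every organoid of Set 1, and the other sets overlapped with both. The mean levels were 0.812 ± 0.564 (SD, n = 8), 4.94 ± 4.68 (n = 10), 1.99 ± 1.81 (n = 5) and 3.24 ± 2.20 (n = 12) CPM in Sets 1 to 4. Each organoid of Set 1 had 1 to 4 counts of Lgr5, 18 in all, against 153 in Set 2, 25 in Set 3 and 110 in Set 4.

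Set 1 was 8.21-fold lower than Set 2 (log2 difference -3.04, SE 0.53, 95% CI -4.10 to -1.98, adj. P-value = 8.41e-05) and 4.95-fold lower than Set 4 (-2.31, SE 0.53, adj. P-value = 0.00294). In these comparisons 14.3% and 20.0% of genes were called, with 7.19% and 7.60% lower in Set 1, and groups without overlap occurred in 1.11% of genes between Sets 1 and 2. In the order of the mean levels, Set 1, Set 3, Set 4 and Set 2, no neighbours differed by the test (adj. P-value = 0.108, 0.452 and 0.208). Without organoid 10 of Set 2, an alternative chosen after seeing the data, the difference between Sets 1 and 2 was -2.49 (adj. P-value = 0.000549). With libraries thinned to the smallest total, the difference between Sets 1 and 4 was -1.65 (adj. P-value = 0.0767).

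In bulk at passage 11, Set 1 measured 2.24 CPM of Lgr5 and did not stand below Sets 3 and 4, at 2.39 and 1.91 CPM. The single organoids of Set 1 were of the same passage and gave a pooled 0.570 CPM (95% exact Poisson interval 0.338 to 0.901), in a table normalised separately. The bulk level of Set 1 came from 9 counts in the first technical replicate and 1 count in the second.

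**Figure D4:**
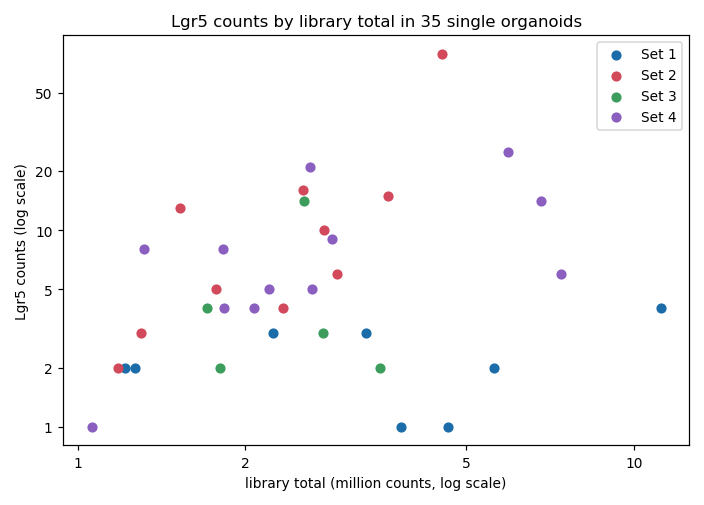
Lgr5 counts (y axis, log scale) against the library total (x axis, log scale), with each point 1 of 35 single organoids and the colour its set. The 8 organoids of Set 1 lie between 1 and 4 counts over the whole range of totals, and organoid 10 of Set 2 stands at 79 counts.

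Sp5 ranged from 1.20 to 9.04 CPM with a median of 1.74 in Set 1, from 1.97 to 6.06 with a median of 3.46 in Set 2, from 2.11 to 3.97 with a median of 2.68 in Set 3, and from 3.76 to 21.0 with a median of 9.83 in Set 4. Set 4 overlapped with every other set at its lower end. Its mean was 9.57 ± 5.28 CPM (SD, n = 12), and Sp5 was lower in Set 1 by 4.48-fold (-2.16, SE 0.35, adj. P-value = 2.64e-05), in Set 2 by 2.76-fold (-1.47, SE 0.31, adj. P-value = 0.00111) and in Set 3 by 3.36-fold (-1.75, SE 0.40, adj. P-value = 0.00288). No difference in Sp5 among Sets 1, 2 and 3 passed.

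Ascl2 had medians of 6.45 CPM (2.52 to 14.8) in Set 1, 8.65 (5.86 to 23.0) in Set 2, 3.97 (1.77 to 6.51) in Set 3 and 14.4 (7.83 to 37.0) in Set 4. All organoids of Set 4 were above all of Set 3, which 2.07% of genes showed in either direction. Set 3 was 4.29-fold below Set 4 (-2.10, SE 0.40, adj. P-value = 0.000293), Set 1 was 2.27-fold below Set 4 (-1.18, SE 0.30, adj. P-value = 0.00628), and Set 2 was 2.62-fold above Set 3 (1.39, SE 0.41, adj. P-value = 0.0212). The last call was lost without organoid 1 or organoid 5 of Set 3 (adj. P-value = 0.0671 and 0.0708) and with all 42 organoids (adj. P-value = 0.0631). Calls were made in 11.6% of genes between Sets 3 and 4 and in 3.93% between Sets 2 and 3.

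Tcf7 had medians of 2.26 CPM (1.51 to 4.82) in Set 1, 5.51 (3.46 to 8.80) in Set 2, 8.92 (4.33 to 14.8) in Set 3 and 6.24 (3.80 to 10.5) in Set 4. A single organoid of Set 1, at 4.82 CPM, reached into the range of the other sets. Set 1 was lower than Set 2 by 2.02-fold (-1.01, SE 0.26, adj. P-value = 0.00686), than Set 3 by 3.27-fold (-1.71, SE 0.29, adj. P-value = 4.96e-05) and than Set 4 by 2.49-fold (-1.32, SE 0.24, adj. P-value = 0.000229). Between Sets 1 and 3, 9.43% of genes were called. In bulk, Set 1 had the highest Tcf7 level at passage 4 and the lowest at passage 11.

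Axin2 had medians of 20.8 CPM (10.2 to 31.8) in Set 1, 20.3 (7.79 to 52.4) in Set 2, 20.6 (16.1 to 30.7) in Set 3 and 36.6 (17.1 to 62.7) in Set 4. The first 3 sets were alike in their medians and the fourth was higher with wide overlap. Only the difference between Sets 1 and 4 passed (-0.89, SE 0.25, adj. P-value = 0.0150), and with thinned libraries it was -0.79 (adj. P-value = 0.0600). The difference was -0.48 (adj. P-value = 0.168) between Sets 2 and 4 and -0.74 (adj. P-value = 0.0931) between Sets 3 and 4. With all 42 organoids both passed, at -0.76 (adj. P-value = 0.0331) and -0.98 (adj. P-value = 0.0290).

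Rnf43 had medians of 9.13 CPM (7.38 to 12.5), 7.43 (4.26 to 10.1), 5.79 (4.46 to 7.07) and 9.10 (4.79 to 15.5) in Sets 1 to 4. All organoids of Set 1 were above all of Set 3, by 0.74 (log2, SE 0.25, adj. P-value = 0.0414), and groups without overlap occurred in 3.69% of genes. This call was lost when any of organoids 1, 3, 4 and 6 of Set 3 was left out (adj. P-value = 0.0648 to 0.106), with limma-voom (0.0507), with thinned libraries (0.241) and with all 42 organoids (0.0552).

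Znrf3 had medians of 19.0, 22.4, 16.1 and 21.5 CPM and Lgr4 of 21.1, 22.1, 20.5 and 21.1 CPM in Sets 1 to 4. For Lgr4 the 6 differences lay between -0.41 and 0.21 on the log2 scale. Only the interval between Sets 3 and 4 (-1.01 to 0.18) reached a change by 2 times, and the other 5 lay within -0.78 to 0.84. Tnfrsf19 had 15, 17, 11 and 52 counts in all in the 4 sets and was at 0 in 1 organoid of Set 1 and 3 of Set 2. Its difference between Sets 1 and 4 was -1.46 (SE 0.52, adj. P-value = 0.0579). Nkd1, which binds Dishevelled and dampens the signal, had 0 counts in all 35 organoids, and by the limit of 3 counts its pooled level was at most 0.0950, 0.120, 0.236 and 0.0828 CPM in Sets 1 to 4.

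**Figure D5:**
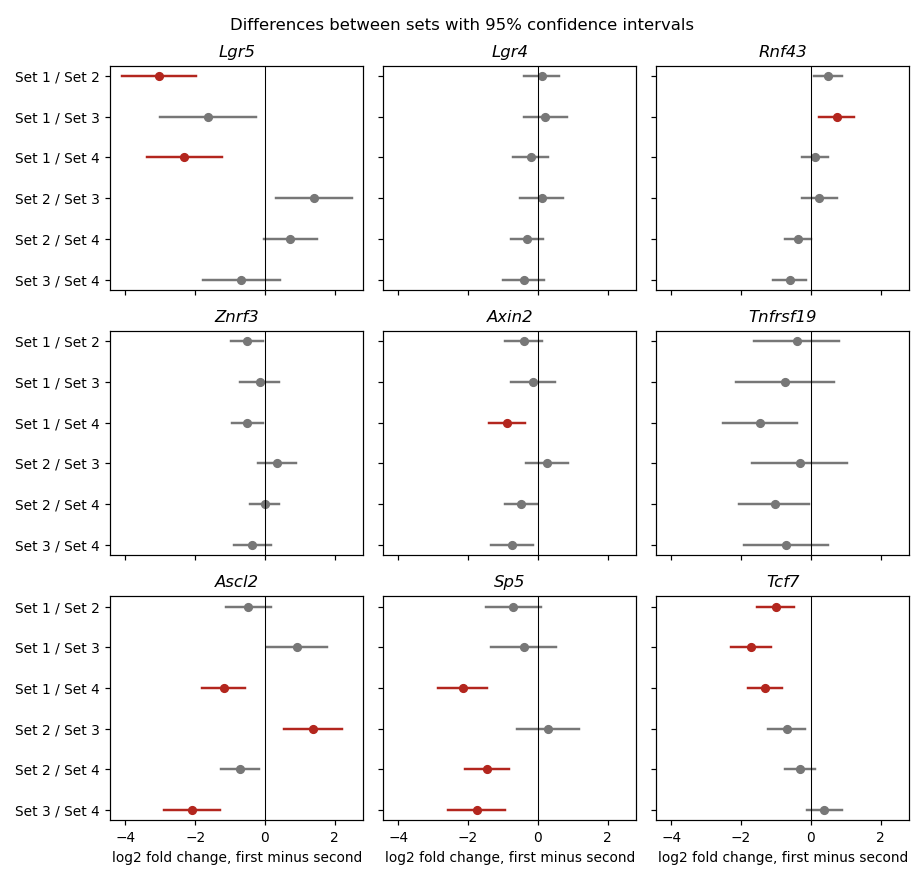
Log2 fold change, first set minus second (x axis), with 95% confidence interval, for 9 members in the 6 comparisons between sets (y axis). Red marks adj. P-values below 0.05 over all genes and comparisons, and grey marks the rest. The red points of Lgr5 and Tcf7 all involve Set 1, and those of Sp5 all involve Set 4.

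Set 4 was the highest in Sp5 and Ascl2 as single organoids at passage 4 and also as a bulk culture at passage 11, where it measured 21.0 and 47.7 CPM. At passage 4 in bulk, Set 4 did not stand above Sets 1 and 3, with 1.41 CPM of Sp5 and 4.22 CPM of Ascl2. The single organoid and bulk tables were normalised separately. No test was made across the tables.

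Markers that moved with the sets were also counted. Proliferation genes were lower in Set 1 than in Set 4 in 16 of 22 cases, than in Set 2 in 12 of 22 and than in Set 3 in 1 of 22, while Mki67 itself was at 289.2, 344.0, 315.3 and 289.9 CPM in Sets 1 to 4. The summed hepatocyte markers had medians of 1252.3, 856.9, 538.4 and 1473.6 CPM in Sets 1 to 4, and the summed cholangiocyte markers of 5892.5, 7645.6, 8126.0 and 6936.4 CPM. Most of the hepatocyte sum was Ttr, which encodes transthyretin, at 1352.0 CPM in Set 1 and 1352.2 CPM in Set 4. Of 8 hepatocyte markers tested 3, 2 and 4 were called higher in Set 1 than in Sets 2, 3 and 4 and none was called lower. Apob was at 33.4 CPM in Set 1 and 2.74 CPM in Set 4 (log2 difference 3.69, SE 0.32, adj. P-value = 1.15e-10), and Alb at 8.31 and 1.31 CPM (2.94, SE 0.56, adj. P-value = 0.000333). Of 3 macrophage markers tested Csf1r was lower in Set 1 than in Sets 2 and 3 (0.955 against 2.04 and 2.88 CPM, adj. P-value = 0.0438 and 0.0118). The part of these markers in the differences of the members was not tested.

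The rest of the pathway separated Set 1 from the others in both directions. Of 19 other Wnt target genes tested, 5 were higher and 4 lower in Set 1 than in Set 2, 3 higher and 2 lower than in Set 3, and 5 higher and 5 lower than in Set 4. Of 7 pericentral hepatocyte genes tested, 4, 3 and 4 were higher and 0, 0 and 1 lower in these 3 comparisons. Tbx3, a T-box factor of this list, was at 80.2 CPM in Set 1 against 11.2, 7.70 and 10.8 CPM in Sets 2, 3 and 4 (2.94, 3.36 and 2.98, SE 0.31, 0.41 and 0.29, adj. P-value = 6.28e-09, 1.54e-07 and 1.02e-09).

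Rnase4 was higher in Set 1 by 3.51 than in Set 3 (SE 0.51, adj. P-value = 5.47e-06) and by 2.74 than in Set 4 (SE 0.34, adj. P-value = 2.20e-07). Cdx2 was at 14.2 CPM in Set 1 and 2.57 and 2.17 CPM in Sets 2 and 3 (2.59 and 2.64, SE 0.53 and 0.68, adj. P-value = 0.000833 and 0.00739). In Set 4 it was at 7.92 CPM, a difference of 0.79 from Set 1 that did not pass (SE 0.43, adj. P-value = 0.241). Prox1, a homeobox factor of liver and lymphatic development, was at 5.62 CPM in Set 1 and 0.835 and 1.10 CPM in Sets 2 and 4 (2.85 and 2.44, SE 0.55 and 0.48, adj. P-value = 0.000397 and 0.000547).

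Lower in Set 1, as Lgr5 and Tcf7 were, was Ephb2, a receptor tyrosine kinase of the lower gut crypt, at 1.80 CPM against 5.44, 6.17 and 7.31 CPM (-1.46, -1.57 and -1.84, SE 0.27, 0.31 and 0.25, adj. P-value = 0.000175, 0.000452 and 1.84e-06). The receptor Fzd2 was lower in Set 1 than in Sets 2 and 4 (0.826 against 2.46 and 2.64 CPM, -1.66 and -1.68, SE 0.38 and 0.37, adj. P-value = 0.00272 and 0.00157). The secreted inhibitor Dkk2 was also lower in Set 1 than in these sets (0.271 against 0.975 and 1.24 CPM, -2.31 and -2.49, SE 0.77 and 0.73, adj. P-value = 0.0418 and 0.0199). Sox4 was lower in Set 1 than in each of Sets 2, 3 and 4 (-1.38, -2.05 and -1.21, SE 0.28, 0.32 and 0.27, adj. P-value = 0.000669, 1.54e-05 and 0.00210). Bcl9, a β-catenin co-activator, was lower in Set 1 than in Set 3 (-1.15, SE 0.22, adj. P-value = 0.000347). It was not called against Sets 2 and 4 (adj. P-value = 0.337 and 0.268).

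Of 2 Wnt ligand genes tested in the single organoids, Wnt4 was higher in Set 1 than in each other set and Wnt7b was lower in Set 1 than in Set 2. Receptors called higher in Set 1 were Ryk and Fzd4 against Set 2 and Lrp6 against Set 4, and those called lower beside Fzd2 were Fzd1 against Set 2 and Fzd6 against Set 3. Of the destruction complex, Csnk1a1 and Apc were higher and Gsk3a lower in Set 1 than in Set 4, and no R-spondin gene had enough counts. No Wnt secretion gene was called in any of the 6 comparisons.

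Among Sets 2 to 4, 3 of 10 nuclear effectors tested were called between Sets 2 and 3, 4 between Sets 2 and 4 and 4 between Sets 3 and 4. The member Tcf7 was not called in these comparisons (adj. P-value = 0.0767, 0.388 and 0.326). Tcf7l2, the main TCF factor of the gut and liver, was at 114.9 CPM in Set 4 and 59.6 and 54.8 CPM in Sets 2 and 3 (-0.93 and -1.06 against Set 4, SE 0.24 and 0.31, adj. P-value = 0.00736 and 0.0180). The co-repressor Tle4 was at 47.8 CPM in Set 3 against 24.2 CPM in Set 2 and 18.0 CPM in Set 4 (-0.95 and 1.42 in the 2 comparisons, SE 0.23 and 0.22, adj. P-value = 0.00460 and 1.79e-05). Ctnnb1, which encodes β-catenin, was at 20.0 CPM in Set 2 and 41.7 CPM in Set 3 (-1.03, SE 0.35, adj. P-value = 0.0464). Of these 3 sets, Set 4 had the highest mean level of both Tcf7l2 and Sp5. Set 1 did not follow this order, with Tcf7l2 at 77.7 CPM, above Sets 2 and 3, and the lowest mean of Sp5, at 2.62 CPM. A relation between the 2 genes was not tested. Between Sets 2 and 4, 12.4% of all genes were called.

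The median difference over the 9 members tested was -0.47, -0.15 and -1.18 in Set 1 against Sets 2, 3 and 4, and 0.01, 0.03 and 0.02 over all genes. In these comparisons 2 of 9, 2 of 9 and 5 of 9 members were called, beside 14.3%, 9.43% and 20.0% of all genes. The counts were 1 of 9 between Sets 2 and 3, 1 of 9 between Sets 2 and 4 and 2 of 9 between Sets 3 and 4. The shares of all genes there were 3.93%, 12.4% and 11.6%, so 1 of 9 between Sets 2 and 4 is near the background. Set 1 served in 3 of these comparisons, which are not independent of each other.

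Within sets, Lgr5 varied more than most genes of its level. Its biological coefficient of variation, the spread between organoids of a set beyond counting error, was 0.578, at percentile 96.7 of genes of every level. The trend at its level was 0.353, and its ratio to the trend was at percentile 96.9. Tnfrsf19 (0.520), Sp5 (0.418) and Ascl2 (0.400) followed in the coefficient, and Rnf43 was the most even at 0.203, with a trend of 0.300. By the ratio to the trend, Ascl2 (percentile 91.6) and Sp5 (89.3) stood above Tnfrsf19 (87.7). In Set 2 the value of Lgr5 in organoid 10 was 10.6 times the lowest of the set. Each gene has 1 coefficient over all sets, drawn towards the trend, and that of Lgr5 was not computed again without this organoid.

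Relations of Lgr5 with the other members, Mki67, Epcam, Fah and the library total were computed within Sets 1, 2 and 4, 36 in all. By exact or 100000-fold permutation of the organoids, 5 had an unadjusted two-sided P-value below 0.05 for Pearson's r and none passed adjustment, the smallest adj. P-value being 0.204. In Set 1, the exact test gave r = -0.830 (P-value = 0.0110) and rho = -0.810 (P-value = 0.0218) with the library total, and r = -0.871 without the 2 organoids farthest from the median. Each organoid of Set 1 had 1 to 4 counts of Lgr5 whatever its total. In Set 4 the permutation test gave r = 0.683 (P-value = 0.0135) and rho = 0.643 (P-value = 0.0282) with Ascl2, and r = 0.516 without the 2 farthest organoids. With Ascl2 in Set 1 the exact permutation test gave r = 0.771 (P-value = 0.0385) and rho = 0.786 (P-value = 0.0279), and r = 0.609 without the 2 farthest organoids. The same test in Set 1 gave r = 0.839 (P-value = 0.0170) with Znrf3 and r = 0.650 (P-value = 0.0246) with Sp5. At 1 to 4 counts the CPM of Lgr5 in Set 1 largely mirrored the library total. The part of depth in these relations of Set 1 was not tested. With Ascl2 in Set 2, r was -0.291 (permutation P-value = 0.409) and rho was -0.333 (permutation P-value = 0.350), and r turned to 0.0923 without the 2 farthest organoids.

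With set means removed, the 5 genes of 6479 ranked whose log2 CPM was most like that of Lgr5 over 35 organoids were Lgals1 (r = 0.658), Nrp1 (0.656), Thra (0.627), Zfp827 (0.612) and Klf10 (0.610). Lgals1 encodes a galectin, Nrp1 a co-receptor of semaphorins and VEGF, Thra a thyroid hormone receptor and Klf10 a zinc-finger factor induced by TGF-β. Without organoid 10 of Set 2 the values were 0.587, 0.599, 0.613, 0.520 and 0.466. The members closest to Lgr5 were Axin2 (r = 0.445) and Ascl2 (0.356), and the others lay between -0.182 and 0.168. The library totals behind these values ranged from 1059002 to 11175868 counts, and the correlations are a description.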

How the data were processed

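RNA was measured by 3′-end RNA-seq in 60 samples. The values are whole gene counts as deposited by the authors, in 1 table per experiment, with no normalisation. Barcodes and unique molecular identifiers were added during reverse transcription, and the study's processing notes name STAR, SAMtools 1.9, featureCounts, R 3.6.3, edgeR 3.28.1 and limma 3.42.2 with GRCm38. By the study's methods the authors mapped and counted with zUMIs, where libraries were also down-sampled according to how much their sizes varied. The sources used here do not say whether the tables hold molecules or reads, or counts from before or after that step, so totals need not be the sequenced depth. Groups came from the sample labels, and the 7 organoids that the study left out, with 666660 to 1152914 counts, were left out here.

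The filter on low counts was filterByExpr of edgeR at a minimum count of 3, and libraries were scaled by TMM. Each experiment was fitted over all kept genes in edgeR 4.0.16 (R 4.3.3) by the quasi-likelihood F-test, with Benjamini-Hochberg adjustment at 0.05, over the 6 set comparisons together. Standard errors come from the F statistic, and scripts were tested on simulated data. The members and gene lists were chosen with earlier results of these data known. The lists were Wnt ligands, R-spondins, Wnt secretion, receptors, Dishevelled and destruction complex, nuclear effectors, inhibitors, other Wnt target genes, pericentral hepatocyte targets, proliferation and cell type markers. Named were all members, at most 3 called genes per direction and comparison, and the 5 genes most like Lgr5 at an average log2 CPM of 4 or more. Genes that stand alone for a list were named after their values were seen. Promoters were credited to RefSeq, and gene positions are those of GENCODE M21.

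Alternatives were RLE factors, no filter, a minimum count of 10, limma-voom (limma 3.58.1), DESeq2 1.42.0, thinning to the smallest total, a replicate block, 1 technical replicate, all 42 organoids, adjustment within each comparison and leaving out each replicate (Set 3 only among organoids). Pairing was checked by the correlation of deviations from group means. It was 0.153, 0.165 and 0.191 for dome and suspension cultures of the same number, which were treated as paired in the block, and 0.110, 0.0283 and 0.108 for the 2 passages of a set, which share a mouse. P-values measure the spread between these samples.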

Additional observations from a re-analysis of the deposited data

Results flagged for a closer look

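In Sets 1, 2 and 3, with 8, 10 and 5 organoids, 5 values stood apart from the rest of their set by Dixon's criterion. Normally distributed values meet this criterion in about 1 of 20 groups. CPM from low counts need not be so distributed, so this rate may not hold here. Each member with counts was examined in each of these sets, and all 5 values lay above the rest of their set. Set 4, with 12 organoids, was not examined, since groups of more than 10 values were left out. Lgr5 was 16.9 CPM (79 counts) in organoid 10 of Set 2, where the next value was 7.87 CPM. Znrf3 was 47.2 CPM (121 counts) in organoid 1 of Set 2, with 27.0 CPM next. Organoid 6 of Set 2 stood apart in both Ascl2, at 23.0 CPM (25 counts) with 12.7 next, and Tnfrsf19, at 3.68 CPM from 4 counts with 1.19 next. Sp5 was 9.04 CPM (12 counts) in organoid 8 of Set 1, with 2.33 CPM next.

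Tcf7 changed in opposite directions between passages 4 and 11, by -0.50 (log2) in Set 1 and by 1.84 in Set 3 and 2.48 in Set 4, with the technical replicates of each set on the same side. The counts at passages 4 and 11 were 27 and 22 in Set 1, 9 and 31 in Set 3, and 13 and 20 in Set 4. Whether the fall in Set 1 exceeds counting error was not tested, and neither was the difference between sets. The 7 organoids left out of the comparisons also had counts of the members, with medians of 14.7 CPM for Lgr4, 31.8 CPM for Axin2, 18.7 CPM for Znrf3 and 15 CPM for Ascl2. Nkd1, at 0 in all kept organoids, reached at most 2 counts and 1.87 CPM among them, with a median of 0.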

How the results depend on the processing

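Over 994 values of single members under the alternatives, 950 kept their side of the threshold, 27 lost it, 17 gained it and 0 called values reversed. Values not called in either fit, which were most of them, count as kept whatever their sign. Leaving out an organoid of Set 3 hardly touches comparisons without Set 3, such as Lgr5 between Sets 1 and 2, at -3.04 in all 5 cases. The 950 is therefore not a measure of how stable the calls were, and the 27 losses fell on called values only. Depth limited Lgr5, Sp5, Tnfrsf19 and Nkd1, whose counts were often below 10. The number of members called between domes and suspension was 1 and became 0 with DESeq2 and with thinning, and 0 to 2 with each replicate left out, while genes called went from 3779 to between 1893 and 3837. Between passages the 2 members called became 5 with no filter, 0 with limma-voom, 1 with thinning and 2 to 4 with each replicate left out, and the 2784 genes called became 1745 with thinning, 1717 with technical replicate 1 only and 1552 to 2244 with each replicate left out. Thinning gave 1161, 776, 1643, 365, 1042 and 956 genes called in the 6 set comparisons, in the order Sets 1 and 2, 1 and 3, 1 and 4, 2 and 3, 2 and 4, and 3 and 4. With thinning 1 member was called between Sets 1 and 3, 3 between Sets 1 and 4 and 0 between Sets 2 and 3. Between Sets 1 and 3 the 2 members became 1 with no filter, limma-voom, all 42 organoids and adjustment within the comparison, and 1 to 2 with each organoid of Set 3 left out. Between Sets 2 and 3 the 1 member became 0 with all 42 organoids (252 genes called) and with adjustment within the comparison (180 genes), and 0 to 3 with each organoid left out. All 42 organoids gave 977 genes and 2 members between Sets 2 and 4, and 716 genes and 4 members between Sets 3 and 4, where leaving out organoids gave 803 to 1895 genes.

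The replicate block left every member call between domes and suspension and between passages in place, with 4019 and 2950 genes called. Organoids of different sets share only a number (median correlation 0.0564, from -0.366 to 0.414). With that number as a block the genes called were 1584 between Sets 1 and 4, 897 between Sets 2 and 4 and 731 between Sets 3 and 4, and 1 member was called between Sets 1 and 3. In that block Tcf7 between Sets 1 and 2 was -0.90 (adj. P-value = 0.0566), Sp5 -1.25 (0.0122), Rnf43 between Sets 1 and 3 0.79 (0.0683) and Tnfrsf19 between Sets 1 and 4 -1.86 (0.0449). The cause of these changes was not tested.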
